A study of Saccharomyces cerevisiae with 16 samples.

Results

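The promoter regions of 34 genes that encode zinc cluster transcription factors were examined for insertions of the Ty5 retrotransposon in 16 calling-card libraries of Saccharomyces cerevisiae. A promoter region was a row of the deposited tables, the interval between a pair of neighbouring genes, in which a listed gene points away from the interval to its left or right, so that its 5′ end borders it. Where the other flanking gene also has its promoter in the interval, or a further gene lies inside, insertions cannot be assigned to the listed gene. The rule found a region for 33 of the 34 genes, among 4740 regions in 15 of the tables and 4532 in the table of the Gal4 library. ERT1, a regulator of gluconeogenic genes, is no flanking gene in the tables and lies inside the YBR238C/THI2 interval, which held 0 to 8 insertions per library and was called in 0.

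Zinc cluster proteins form a large family of fungal transcription factors in which 6 cysteines bind a pair of zinc ions. The domain contacts short CGG triplets, and many members act as dimers on paired triplets whose spacing and orientation differ between factors. Members control sugar, amino acid, lipid and drug-resistance genes, and some are known to regulate their own genes or those of other members, which places the promoters described here at the connections between regulators.

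Each strain made a factor as a fusion with Sir4, a silencing protein to which the Ty5 integrase binds, expressed from the ADH1 promoter on a plasmid, with Ty5 on a second plasmid under the inducible GAL1/10 promoter. The 12 factor libraries (Gal4, Leu3, Yrm1, Yrr1, Tea1, Lys14, Cat8, Cha4, Put3, Urc2, Hal9 and Aro80) were labelled BY4741 and lacked SIR4 and the chromosomal gene of the tagged factor. The other 4 held the Gal4 fusion in strains without SIR4 and GAL4 with a further deletion, of HMO1 (labelled hmoD), LEU3, SEF1 or YRM1, and the labels name these strains BY4742, BY4743, BY4744 and BY4745 in that order, so strain and deletion cannot be told apart. Whether these consecutive names record different strains could not be checked. The fusion was thus not expressed from the promoters measured here. With 1 library in each group there is no measure of replicate error, and the exact 95% intervals given cover counting error only.

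Depth in the factor libraries was 18295 to 36063 insertions, and in the deletion libraries 6932 to 13882, so that 1 insertion was worth 2.77 to 5.47 per 100000 in the former and 7.2 to 14.4 in the latter. The fold over background is the share of a library's insertions in a region over the share of the authors' background insertions there. Calls required 5 or more insertions together with a hypergeometric p-value, as the authors deposited it, of at most 0.001. Because the shares within a library add up to 1, insertions gathered at strong targets lower the fold elsewhere.

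Of the 33 promoter regions, 10 were called for at least 1 of the 12 factors (30.3%), against 14.6% of the 3260 promoter-holding regions present in every table. Calls for at least 2 factors were made at 4 of the 33 (12.1%), against 4.97% of those regions. The 10 were YRR1, TBS1, MAL33, PIP2, UME6, STB5, ECM22, SUT1, HAP1 and THI2, with 16 calls in all among 396 pairs of a promoter and a factor library. The called regions were longer and richer in background insertions, with a median length of 1742 bp and a median of 38.5 background insertions, whereas the other 23 had medians of 488 bp and 9. The part of length and background in the difference between 30.3% and 14.6% was not tested. Among the 25 regions with no further annotated gene inside, 5 were called (20%), against 12.2% of such promoter regions in general. Among the 18 where only 1 flanking gene has its promoter in the interval, 3 were called (16.7%), against 12.9% of such regions. That share is close to the background. Genes inside an interval were not counted for this, and the called STB5 and THI2 intervals span such genes.

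**Figure D1:**
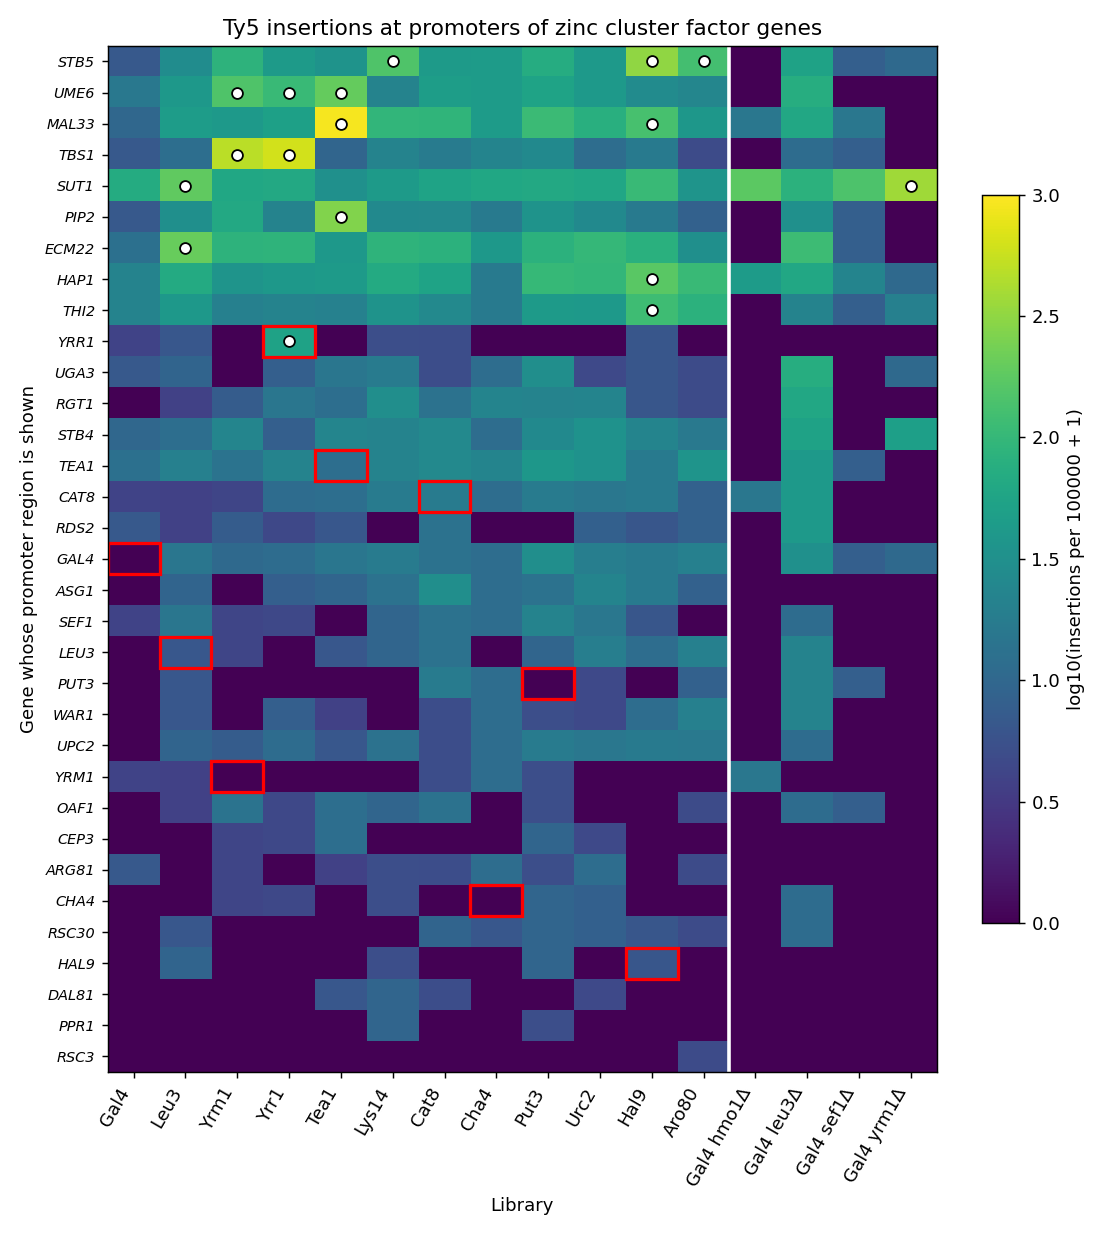
Insertions per 100000 at each of the 33 promoter regions (rows) in the 16 libraries (columns), as log10 of the value plus 1, with white circles at called values and red frames where a factor meets the promoter of its own gene. The 17 circles lie in 10 rows, and of the 9 red frames 1 holds a circle, YRR1 in the Yrr1 library.

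By library, 4 of the 33 regions were called for Hal9 (background share of all promoter-holding regions, 2.70%), 3 for Tea1 (3.07%) and 3 for Yrr1 (2.30%). Leu3 (2.98%) and Yrm1 (3.10%) had 2 each, and Lys14 (1.36%) and Aro80 (1.79%) had 1 each. None was called for Gal4 (2.38%), Cat8 (1.79%), Cha4 (0.711%), Put3 (0.654%) or Urc2 (1.39%), where the deposited p was under 0.05 at 0, 2, 0, 4 and 2 of the regions. For a list of 33, each of these background shares corresponds to about 1 region or fewer, and with 1 library per factor the excess has no replicate check. The median fold of the 33 regions lay above that of all promoter-holding regions in 12 of the 12 factor libraries, at 0.13 to 1.09 against 0 to 0.88. These are not independent results, because all factor libraries but Gal4 share 1 background set. In the deletion libraries it lay above in 1 of 4. Both medians were 0 in the libraries without HMO1, SEF1 or YRM1, a tie at the lowest possible value. The 33 regions had a median of 555 bp and 12 background insertions, against 495 bp and 8 for promoter-holding regions. The part of this in the medians was not tested. Pooled over the 33, the fold was 2.57 for Tea1 (2.28 to 2.89), 1.85 for Yrr1 (1.61 to 2.12), 1.75 for Hal9 (1.49 to 2.05) and 1.72 for Yrm1 (1.5 to 1.97). Single regions carried much of these values, with 321 of the 600 Tea1 insertions at MAL33, and 174 of 343 Yrr1 and 154 of 354 Yrm1 insertions at TBS1, while the median folds over the 33 were 0.53, 0.50 and 0.41. It was 0.718 for Cha4 (0.565 to 0.902) and 0.286 for Gal4 (0.222 to 0.365), whose 33645 insertions included 72 at these promoters.

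**Figure D2:**
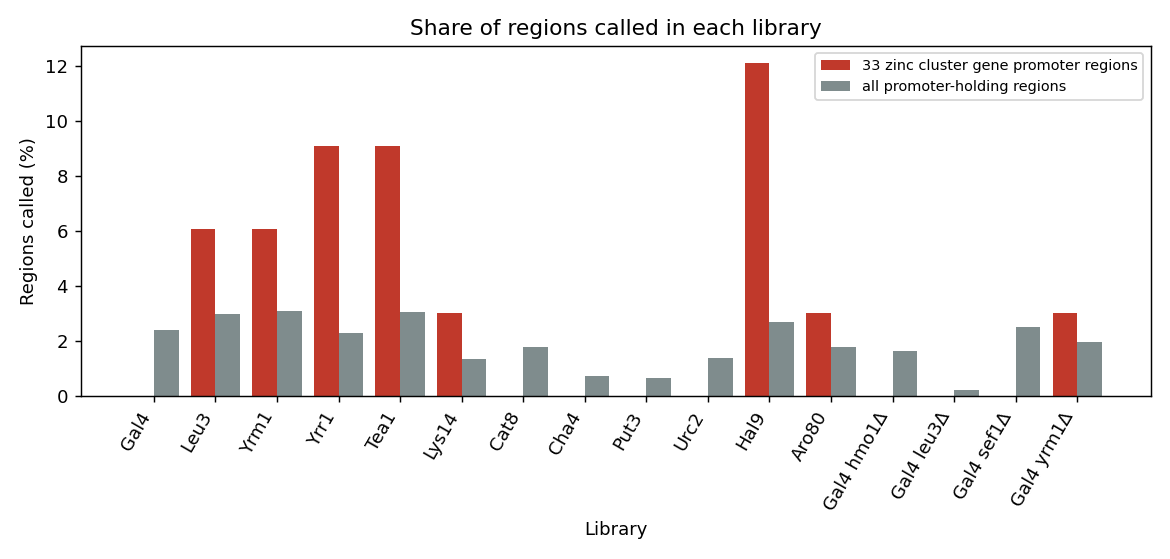
Percentage of regions called in each library, among the 33 zinc cluster gene promoter regions (red) and among all promoter-holding regions of the same table (grey). The red bars stand above the grey ones in the 7 factor libraries with a call, from 3.03% for Lys14 and Aro80 to 12.1% for Hal9, and are 0 in the 5 others. With 33 regions, 1 call is already 3.03%, so for Lys14 and Aro80 this follows from the size of the list.

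Of the 9 profiled factors whose own gene is among the 33, 1 was called at its own promoter. Each factor strain also lacks the chromosomal gene of its own factor, which is not deleted in the other factor strains. At every own promoter, the factor and this deletion therefore cannot be told apart. Yrr1, an activator of multidrug resistance genes, placed 15 insertions between YRR1 and DDP1 (chromosome XV 641992 to 642741), 53 per 100000, where the background held 2. Its fold was 22.3 (5.18 to 201). The other 11 factor libraries held 0 to 2 insertions there, with 0 in 6 of them, so the Yrr1 library stood apart from all of them. DDP1, which encodes an inositol polyphosphate phosphatase, is transcribed divergently from the same interval, and insertions cannot be assigned to 1 of the 2 promoters. The fold rests on the small background, and against the other background set, with 6 insertions in the region, it was 9.18 (3.36 to 28.9) and the region remained called.

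The remaining own promoters showed no enrichment that passed the rule, with depths that differ in what they could show. Gal4, the galactose activator, placed 0 of 33645 insertions at the GAL4 region, where 3 insertions would have been 0.356-fold and 23 were needed for a call, and the upper bound of its fold was 0.471. All of the other 11 factor libraries held more there, at 2 to 7 insertions. The GAL4 interval is 2153 bp long and also spans YPL247C, so these insertions cannot be assigned to the GAL4 promoter. Tea1, a regulator named for its action on Ty1 enhancers, placed 4 insertions at TEA1 (0.393-fold, 0.099 to 1.14), and the other 11 factor libraries all had a higher fold. Over all promoter-holding regions the median fold was 0 in the Gal4 library and 0.39 in the Tea1 library. Both own promoters were thus near the median of their library and did not stand out from other promoters in it. Put3, the proline-use activator, placed 0 at PUT3, with an upper bound of 1.27.

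Cat8, the activator of gluconeogenic genes, placed 4 insertions at CAT8 (1.56-fold, 0.351 to 5.6) and Leu3, the regulator of leucine synthesis, placed 2 at LEU3 (0.666-fold, 0.0675 to 3.5). Hal9, linked to salt tolerance, placed 1 insertion at HAL9, and Yrm1 and Cha4, the regulators of drug resistance and of serine and threonine catabolism, placed 0 at their own promoters. At those 3 regions the background held 3 insertions each, the upper bounds were 18.6, 6.49 and 11.1, and a call needed 7, 9 and 7 insertions. Enrichment of several-fold was therefore not detectable there at this depth.

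**Figure D3:**
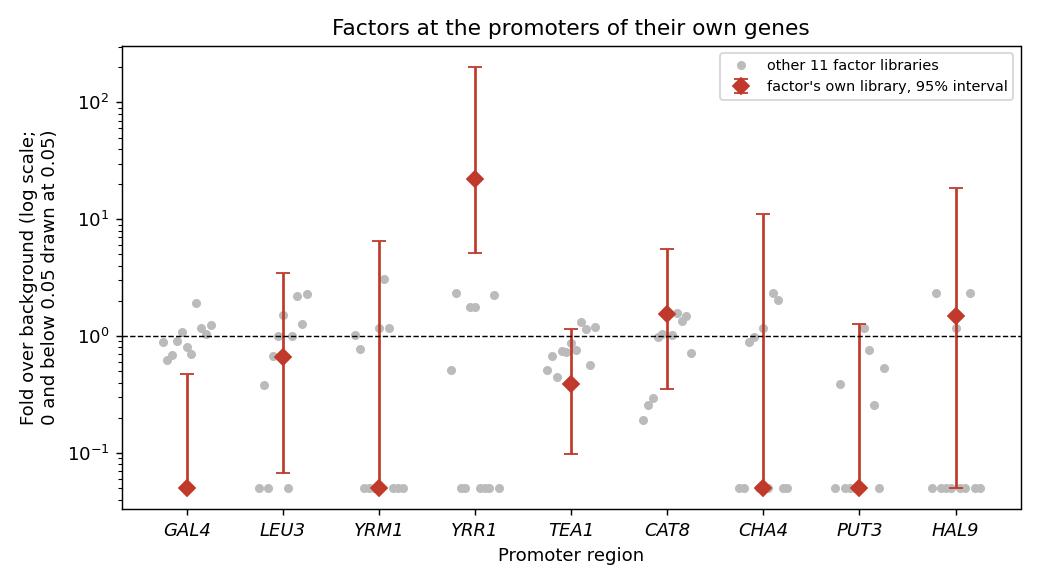
Fold over background on a log axis at the promoters of 9 profiled factors, for the factor's own library (red diamonds with 95% intervals for counting error) and for the other 11 factor libraries (grey points), with values of 0 drawn at 0.05. YRR1 is the promoter where the own library lies above all others, at 22.3-fold, while at GAL4 and TEA1 it lies below all of them. The values at GAL4 and TEA1 are near the median of all promoter-holding regions in the Gal4 and Tea1 libraries (0 and 0.39).

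Regulators of drug resistance met at a further promoter. TBS1, a zinc cluster gene named for thiabendazole sensitivity, shares a divergent interval with APD1 (chromosome II 544493 to 545028). That interval held 154 Yrm1 and 174 Yrr1 insertions, 491 and 614 per 100000, and was the 19th and the 16th most used promoter-holding region of the 2 libraries. The folds were 24.3 (14.7 to 42.8) and 30.4 (18.4 to 53.4). In the other 10 factor libraries it held 1 to 6 insertions, at 0.189-fold to 1.25-fold, so both related factors were far above every other library.

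The Yrm1 and Yrr1 libraries were also compared directly, region by region, over 547 regions with at least 10 insertions in both together. Of the 11 member regions tested, 1 was lower in Yrm1 (9.14% of all tested regions were lower) and 0 were higher (11.0% of all). That region was YRR1, with 0 Yrm1 against 15 Yrr1 insertions, for which the upper bound of the ratio of shares was 0.252 (two-sided Fisher's exact test with Benjamini-Hochberg adjustment over the 547 regions, adjusted p = 0.000155). TBS1 had a ratio of Yrm1 to Yrr1 shares of 0.799 (0.639 to 0.998), which did not pass after adjustment (Fisher's exact test, adjusted p = 0.161). YRM1 itself held 0 insertions in both libraries and was too sparse to be tested. Before adjustment, 4 of the 11 were under 0.05, and the test compares 2 libraries, not 2 conditions. The Yrr1 strain also lacks the chromosomal YRR1 gene, so factor and deletion cannot be told apart at the YRR1 region.

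STB5, whose product regulates NADPH-producing and multidrug resistance genes, was called for 3 factors. Its interval with FMO1 (chromosome VIII 455527 to 459299) is 3772 bp long and also spans ROF1, so its insertions cannot be assigned to the STB5 promoter. It held 60 Hal9, 35 Lys14 and 33 Aro80 insertions, 320, 147 and 126 per 100000. The folds were 6.57 for Hal9 (4.34 to 10), 3.02 for Lys14 (1.87 to 4.86) and 2.59 for Aro80 (1.58 to 4.19). The other 9 factor libraries held 2 to 27 insertions, 0.131-fold to 1.77-fold, with Yrm1 the highest of them. STB5 was thus the region with the most insertions among the 33 in the Hal9, Lys14 and Aro80 libraries. WAR1, the weak acid response regulator, and ASG1, a stress regulator, held at most 5 and 7 insertions in any factor library and were not called.

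Genes of lipid regulators gave 3 called promoters of 5, beside 10 of all 33 and 14.6% of promoter-holding regions. This and the other groups by role were made after the values were seen, and the counts are a description. PIP2 encodes a partner of Oaf1 in the activation of peroxisomal genes by oleate. Its interval with SCP1 (chromosome XV 1023212 to 1026007), which also spans YOR365C, held 96 Tea1 insertions, 269 per 100000 and 8.38-fold over background (5.42 to 13.4). Yrm1 followed with 20 (1.99-fold, 1.06 to 3.68), and the others held 2 to 11. OAF1 itself held 0 to 4 insertions across the factor libraries and was not called. The PIP2 interval also holds the promoter of SCP1, and its insertions cannot be assigned to either.

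ECM22 encodes a sterol regulator and is a paralogue of UPC2. Its interval up to CDC42 (chromosome XII 602463 to 604212), in which ECM22 has the only promoter, held 73 Leu3 insertions, 202 per 100000. The Leu3 fold was 4.48 (2.99 to 6.82), but 2.26 (1.64 to 3.11) against the other background set, and the call held with both. The other 11 factor libraries ranged from 4 (Gal4) to 27 insertions (Yrm1 and Urc2), below Leu3 but up to 2.18-fold over background. UPC2 held 0 to 4 insertions in the factor libraries and was not called.

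SUT1, which encodes a regulator of sterol uptake, shares a divergent interval with the recombination gene RAD54 (chromosome VII 196403 to 198138). It held 67 Leu3 insertions, 186 per 100000, for a fold of 3.19 (2.17 to 4.71). In the other 11 factor libraries it held 9 to 23, the latter in Gal4, and the highest fold among them was 1.83 for Hal9 (1.03 to 3.14). The Leu3 library was therefore highest among the factor libraries at both called sterol regulator promoters.

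Among the 6 promoters of carbon and respiration regulators, grouped in the same way, MAL33 and HAP1 were called, beside 14.6% of promoter-holding regions. MAL33 encodes an activator of maltose genes and shares an interval near the end of chromosome II with the phosphate transporter gene PHO89 (798522 to 800523), which also spans TYC1. The interval held 321 Tea1 insertions, 899 per 100000, the 12th highest count among promoter-holding regions of that library. Its fold was 18 (13 to 25.5), and 10.5 (8.28 to 13.4) against the other background set. Hal9 placed 25 insertions there (2.67-fold, 1.56 to 4.48), a call that was lost against the other background (1.56-fold, 0.957 to 2.45). The other 10 factor libraries held 3 to 26, with Put3 the highest at 2.19-fold (1.29 to 3.66).

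HAP1, the haem-responsive activator of respiratory genes, shares its interval with NDL1 (chromosome XII 644973 to 646415), and YLR255C lies inside. Hal9 placed 32 insertions there, 171 per 100000 and 3.05-fold over background (1.89 to 4.89). The other libraries formed a continuous range below, from 3 insertions for Cha4 to 28 for Aro80 (1.91-fold, 1.15 to 3.12), and the intervals of Hal9 and Aro80 overlap. GAL4, CAT8, RGT1 (the glucose-responsive repressor of hexose transporter genes) and RDS2 (an activator of gluconeogenic genes) held at most 7, 4, 7 and 3 insertions in any factor library.

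UME6 encodes a DNA-binding repressor of meiotic genes and shares a divergent interval with MSS4, which encodes a phosphoinositide kinase (chromosome IV 867522 to 868224). It held 70 Tea1, 47 Yrm1 and 30 Yrr1 insertions, 196, 150 and 106 per 100000. The folds were 8.68 (5.17 to 15.3), 6.63 (3.82 to 12) and 4.69 (2.55 to 8.82), and the other 9 factor libraries held 5 to 14. Against the other background set, which holds 42 insertions there in place of 19, the folds were 4.85, 3.71 and 2.62 and all 3 calls were kept. The ratio of Yrm1 to Yrr1 shares was 1.41 (0.876 to 2.32) and did not pass Fisher's exact test (adjusted p = 0.344, two-sided). The chromatin remodelling genes RSC3 and RSC30 and the kinetochore gene CEP3 held at most 1, 2 and 4 insertions in any factor library.

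Of 8 regulators of amino acid, nitrogen, pyrimidine and thiamine genes, 1 had a called promoter, a share near the 14.6% of all promoter-holding regions. THI2, an activator of thiamine synthesis, borders an interval of 3605 bp (chromosome II 701842 to 705447) that also spans VVS1 and YBR242W. It held 22 insertions for Hal9 (117 per 100000, 2.53-fold, 1.43 to 4.38), just the 22 needed for a call, and 22 for the deeper Aro80 library (1.81-fold, 1.02 to 3.13), which was not called. The Hal9 call was lost at a p-value of 0.0001 or less and against the other background set. LEU3, CHA4, PUT3, UGA3, DAL81, ARG81 and PPR1 held at most 7 insertions in any factor library, the 7 being Put3 insertions at UGA3, the gene of the GABA-use activator.

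**Figure D4:**
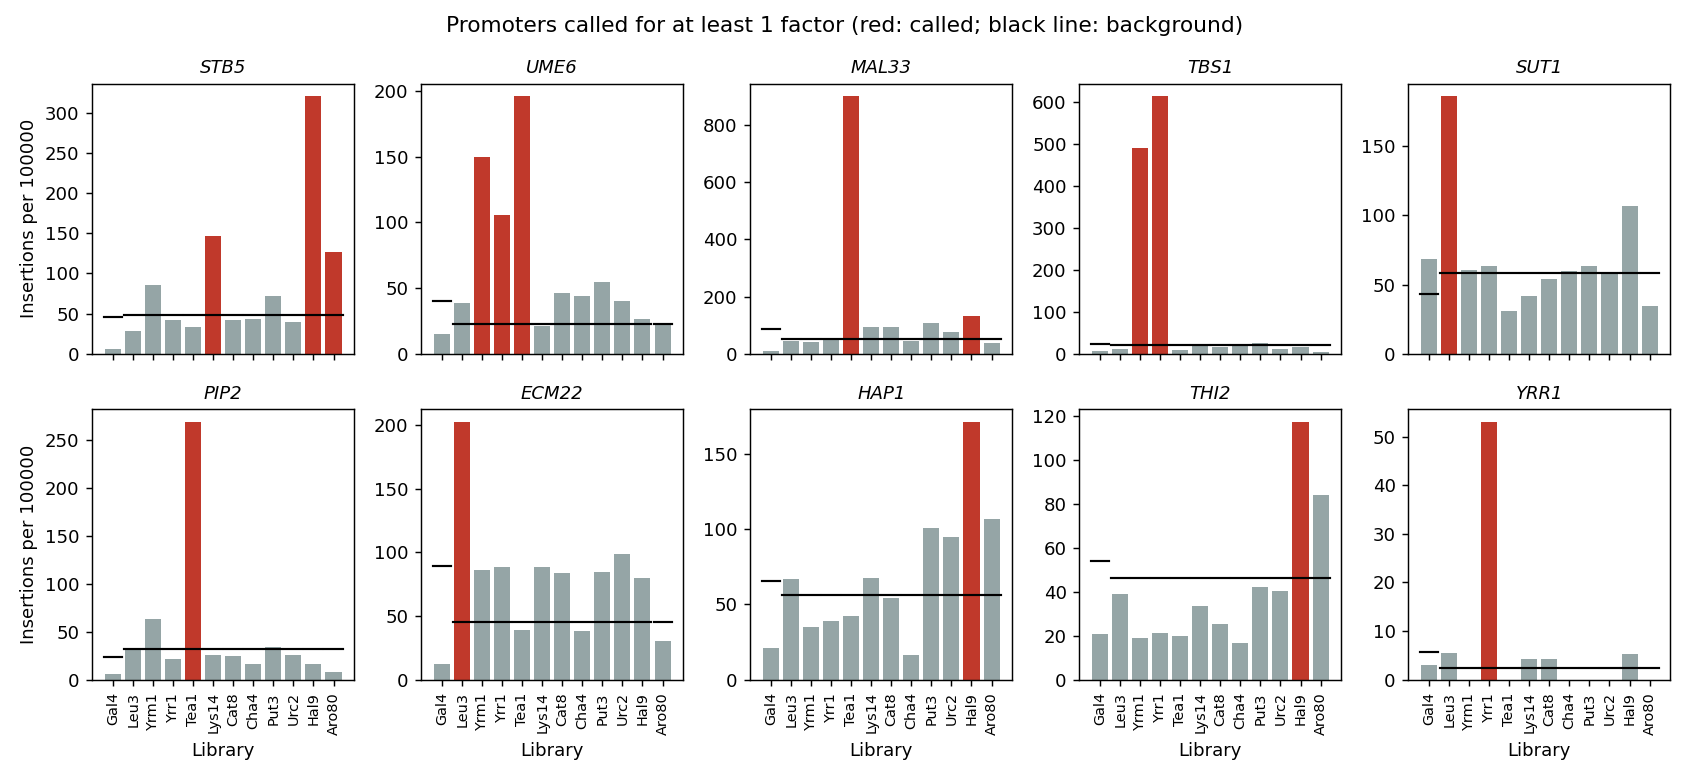
Insertions per 100000 in the 12 factor libraries at the 10 promoters called for at least 1 factor, each on its own axis from 0, with called libraries in red and the background of each table as a black line. TBS1, MAL33, PIP2 and YRR1 show 1 or 2 libraries far above the rest, whereas at HAP1 and THI2 the called Hal9 value lies close to that of Aro80.

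The 23 regions not called for any factor held at most 9 insertions in any factor library, and 94 of their 276 values were 0. Between 5 and 34 insertions were needed for a call at these regions. STB4 and SEF1, genes of little studied zinc cluster proteins, lie in intervals of 3474 and 3702 bp and held at most 9 and 5 insertions. The STB4 interval also spans PEX9, and the edges of the SEF1 interval do not both equal annotated gene ends. How much of either length is promoter was not examined. Background counts ranged from 1 at PPR1, the pyrimidine pathway activator, to 36 at STB4, so regions with few background insertions, such as PPR1, RSC3 and DAL81 with 1 to 3, carry little information in either direction.

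A list of 21 other zinc cluster genes was examined in the same way, of which 10 had a region in the 15 tables. Calls were made at 2 of these 10, near the 14.6% of all promoter-holding regions. The ARO80 promoter held 66 insertions of Aro80 itself and 0 to 2 in the other factor libraries. ARO80 and YRR1 were thus the 2 called own promoters of the 10 that could be examined. The Aro80 strain lacks the chromosomal ARO80 gene, so factor and deletion cannot be told apart there either. The PDR3 promoter, of a multidrug resistance activator gene, held 30 Yrr1 insertions (14.9-fold, 6.08 to 43.6) and 9 Yrm1 insertions (4.02-fold, 1.28 to 13.7), the latter short of the 12 needed. At SIP4, which encodes an activator of gluconeogenic genes, Cat8 placed 12 insertions, 1 short of a call.

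The Gal4 libraries with an extra deletion were compared with the Gal4 library at the same promoters, to ask whether loss of another protein changes where Gal4 inserts. These 4 comparisons share the Gal4 library. The regions of the deleted factor genes were nearly empty. They held 0 insertions at SEF1 in sef1Δ, 2 at LEU3 in leu3Δ and 0 at YRM1 in yrm1Δ. The LEU3 and YRM1 regions cannot serve as a check of the labels, since deletion of a coding region leaves its promoter. The edges of the SEF1 region do not both equal annotated gene ends, so it may hold coding sequence. Its 0 is no check either, since the Gal4 library held 1 insertion there. One of the 33 regions was called against background in yrm1Δ (1.96% of promoter-holding regions) and 0 in hmo1Δ (1.65%), leu3Δ (0.199%) and sef1Δ (2.50%), where the deposited p was under 0.05 at 1, 6 and 1 regions.

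The called region was SUT1, with 38 insertions in yrm1Δ, 370 per 100000 and 6.35-fold over background (4.04 to 9.89). The Gal4 library held 23 insertions there (68.4 per 100000), hmo1Δ 12 (173), leu3Δ 8 (83.1) and sef1Δ 20 (144). All 4 deletion libraries thus had a higher share than Gal4, with yrm1Δ above the others, but the leu3Δ value turned to -0.69 (log2) when scaled to the median ratio. The yrm1Δ share was 5.41 times that of Gal4 (3.14 to 9.51, adjusted p = 1.19e-08 by Fisher's exact test, two-sided), where 7.39% of the 230 regions tested were higher. The ratios in hmo1Δ (2.53, 1.15 to 5.3, adjusted p = 0.115), sef1Δ (2.11, 1.1 to 4.01, adjusted p = 0.0974) and leu3Δ (1.22, 0.47 to 2.81, adjusted p = 0.773) did not pass Fisher's exact test. Whether yrm1Δ differed from the other deletion libraries was not tested.

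In leu3Δ, 2 of the 4 member regions tested were higher than in Gal4, where 29.6% of 324 regions were higher and 20.7% lower. The count was 1 when scaled to the median ratio, 8 with a minimum of 5 insertions together and 4 with a minimum of 1. ECM22 held 11 insertions against 4 (114 against 11.9 per 100000), a ratio of 9.61 (2.85 to 41.4, adjusted p = 0.000175 by Fisher's exact test, two-sided). UME6 held 7 against 5, a ratio of 4.89 (1.34 to 19.5, adjusted p = 0.0171), which did not pass Fisher's exact test when scaled to the median ratio (adjusted p = 0.231). Over regions with 10 or more insertions in each library that median was 1.03 on the log2 scale in leu3Δ, 0.27 in hmo1Δ, 0.36 in sef1Δ and 0.32 in yrm1Δ. HAP1, at 6 against 7, had a ratio of 3 (0.832 to 10.4, adjusted p = 0.0879, Fisher's exact test). Against background, ECM22 was at 2.53-fold (1.17 to 5.05) and UME6 at 3.22-fold (1.14 to 8) in leu3Δ, and neither was called. The leu3Δ library had 7 called regions against 83 in Gal4. Its median fold over all promoter-holding regions was 0.73, against 0 in Gal4. Whether the higher shares are particular to these promoters was not tested. The share of all 33 regions in leu3Δ was 1.47-fold over background (1.17 to 1.84), against 0.286-fold in Gal4, and 9 regions were at 0 in leu3Δ against 15 in Gal4. The 2 folds rest on different background sets, with 655 per 100000 at these regions for leu3Δ and 748 for Gal4.

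In hmo1Δ and sef1Δ, 2 member regions each passed the minimum of 10 insertions, SUT1 and HAP1, and 0 passed the test (6.79% of regions were higher and 1.36% lower in hmo1Δ, and 11.1% and 3.97% in sef1Δ). In yrm1Δ, SUT1 was the single member region tested (4.35% of regions were lower). The other members held at most 7 insertions in Gal4 and at most 5 in hmo1Δ, sef1Δ or yrm1Δ, and were not tested under the minimum of 10. Among them STB4 held 5 insertions in yrm1Δ against 3 in Gal4, a ratio of 5.45 (1.06 to 35.1, without adjustment for the number of regions). Over background, STB4 was at 1.14-fold in yrm1Δ (0.348 to 2.91), so not enriched there, and at 0.232-fold in Gal4 (0.0458 to 0.727).

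**Figure D5:**
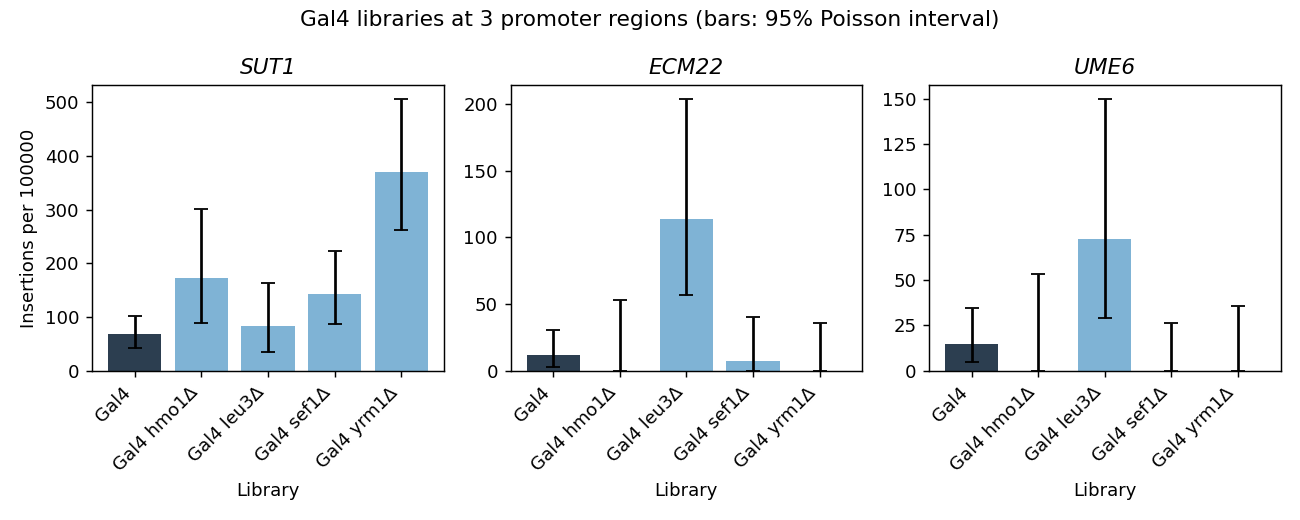
Insertions per 100000 at the SUT1, ECM22 and UME6 promoter regions in the Gal4 library (dark) and the 4 Gal4 libraries with an extra deletion (light), with 95% Poisson intervals for counting error. SUT1 is highest in yrm1Δ at 370 (262 to 507) against 68.4 in Gal4 (43.3 to 103), and ECM22 and UME6 are highest in leu3Δ.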

How the data were processed

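Ty5 insertions were measured in 16 libraries, 1 per group, with groups taken from the labels. Per the labels, DNA was cut in 3 separate digests and insertions were amplified by inverse PCR. Per the submitters' processing notes, Novoalign and the sacCer2 build were used, and other steps are not given in the sources used here. The authors deposited counts of insertions per region in the library and in a background set, each also as a fraction of its total, with a hypergeometric and a Poisson p-value. Recomputed hypergeometric p-values differed by at most 3.26e-08. The background holds 103922 insertions in the Gal4 table and 84109 in the other 15. All 33 regions have the same flanking genes and length in both. Both edges equal R64 gene ends for 32 of 33 in the 15 tables, although the notes name sacCer2. The exception is SEF1. Coordinates are printed as those 15 tables give them. Genes inside a region were read from an R64 gene table.

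Folds, exact conditional binomial intervals and two-sided Fisher's exact tests (at least 10 insertions in the 2 libraries together, Benjamini-Hochberg over all shared regions tested, threshold 0.05) were computed in Python 3.11.15 (scipy 1.17.1, pandas 2.3.3 and numpy 2.4.6), with matplotlib 3.10.9 for figures. Log2 ratios had 0.5 insertions added. Calls and tests were tested on simulated data. Named were all promoters called in a library, own promoters, those of SEF1, LEU3 and YRM1, the member with the most insertions per library and called genes of the list of other zinc cluster genes. SIP4, uncalled members and groups by role were named after their values were seen. The members and lists were chosen with earlier results of these data known. Promoter and protein sequences were not used here. PCR without molecular tags means that intervals cover counting error only.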

Additional observations from a re-analysis of the deposited data

Results flagged for a closer look

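The tables also give counts for a wider region around each interval, which the comparisons above do not use. In the sef1Δ library the part of the SEF1 region that lies only in the wider definition held 10 insertions, against 1 in the background and 0 or 1 in each of the other 15 libraries, Gal4 among them at 0. The interval itself held 0 insertions in sef1Δ. Its edges do not both equal annotated gene ends, and how much of it is SEF1 coding sequence was not examined. With the wider region the deposited p-value was 0.000153, so SEF1 would be called in the library that lacks the SEF1 gene. At LEU3 in leu3Δ and YRM1 in yrm1Δ the wider parts held 0 and 0 insertions. The tables do not give positions within a region, and the cause was not tested.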

How the results depend on the processing

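The 17 calls in 10 regions became 26 at a p-value of 0.01 or less, and 9 in 5 regions without intervals that span another gene. They became 5 in 3 regions where only 1 flanking gene has its promoter in the interval, with genes inside not counted. The other settings (p of 0.0001 or less, minimum of 1 or 10 insertions, Poisson p-value, wider regions, adjustment over the table, and, chosen after seeing the data, the other background and omission of the leu3Δ library) gave 15 to 25 calls. With the other background, 15 of the 17 calls were kept, MAL33 and THI2 were lost for Hal9, and PIP2 for Yrm1 and SUT1 for hmo1Δ and sef1Δ were gained. Among the 9 own promoters, the YRR1 call of Yrr1 was the single one at p of 0.01 or 0.0001 and with no minimum. The same held with the Poisson p-value, wider regions and the other background. That call is lost where only 1 flanking gene may have its promoter in the interval. Of 17 folds, 5 moved beyond their interval with the other background and 0 with insertions between genes as totals or with wider regions. In leu3Δ against Gal4, members past the test numbered 2, but 1 when scaled to the median ratio, 8 with a minimum of 5 insertions and 4 with a minimum of 1, and SUT1 turned to -0.69 (log2) when scaled, as did HAP1 in sef1Δ to -0.19. For Yrm1 against Yrr1, totals between genes gave 2 in place of 1, with PIP2 added, and ECM22 and SUT1 turned to 0.06 and 0.03 (log2), neither past the test. The cause was not tested. No paired analysis was possible because each group has 1 library, and for the same reason no library could be left out within a group. Depth limits the deletion libraries most, where 1 insertion is worth 7.2 to 14.4 per 100000.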
